A study of Mus musculus with 11 samples.

Results

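S265A-hJMJD1A-transduced beige adipocytes were compared with both cultures that carried WT-hJMJD1A. JMJD1A, encoded in the mouse by Kdm3a, removes methyl groups from lysine 9 of histone H3. Protein kinase A phosphorylates one of its serines when β-adrenergic receptors are activated, and in S265A an alanine, which cannot be phosphorylated, takes the place of that serine. The comparison used 3 of the 11 RNA-seq samples of the series, 1 of S265A and 2 of WT (WT A and WT B). All 3 were im-scWAT cells, a preadipocyte line made from inguinal subcutaneous white fat of mice with SV40 large T antigen. All 3 also carried a short hairpin RNA against endogenous Jmjd1a and a retrovirus that drove human JMJD1A from its long terminal repeat, and all were at day 8 of differentiation with rosiglitazone (ROS, a PPARγ ligand) at 0.5 μM. Whether a line was 1 clone, and whether WT A and WT B were grown beside S265A, is not given in the sources used here. A gene entered the comparison when the FPKM (fragments per kilobase of exon, scaled to sequencing depth) of its sense row reached 1 in at least 1 of the 3 samples, which held for 12896 of 29955 gene symbols. A difference was counted only when S265A lay on the same side of WT A and of WT B. The gene just inside the minimum was Phactr1, whose highest FPKM was 1.00004, and the one just outside was C130026I21Rik, at 0.99995.

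Beige adipocytes arise within white fat on cold exposure or on prolonged PPARγ activation, and burn fatty acids in mitochondria rich in uncoupling protein 1. Norepinephrine released in the cold acts on the β3-adrenergic receptor, raises cAMP and activates protein kinase A. Preadipocytes, by contrast, express stromal surface proteins, secreted Wnt modulators and inhibitors of adipogenesis, many of which fall as fat cells form.

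The 3 samples held 3.70 Gb (WT A), 3.67 Gb (WT B) and 5.29 Gb (S265A) of mapped bases, against a range of 3.10 to 5.29 Gb over the series. The defining adipocyte genes were abundant in all 3. Fabp4, a fatty acid-binding protein, had FPKM of 12393 and 26902 in WT A and WT B and 23908 in S265A, and Adipoq, which encodes adiponectin, had 978, 738 and 608. Of the 57 markers listed for leukocytes, endothelium, muscle, epithelium and nerve or glia, 7 reached the minimum FPKM of 1. Defining genes such as Ptprc, Cdh5, Myod1, Epcam and Gfap stayed under 0.1 in each of the 3. The lists were not silent, however. Their summed FPKM in WT A, WT B and S265A was 10.4, 32.4 and 12.4 for muscle and 11.8, 20.8 and 14.6 for epithelium. For leukocytes it was 6.98, 17.7 and 10.2, for endothelium 4.65, 8.85 and 6.14, and for nerve or glia 1.24, 1.29 and 1.06. Each sum was highest in WT B. Kdm3a, on chromosome 6 from 71538966 to 71582899 in mm9, had FPKM of 20.4 and 17.9 in WT A and WT B and 13.0 in S265A, a gap of -0.46 on the log2 scale from the nearer WT sample. It was at 23.0 in S265D, 28.5 in S265D-H1120Y and 21.1 in untransduced cells at day 8 with ROS. Reads of the human cDNA may align to Kdm3a, and its value therefore does not check the labels.

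In the median, the WT samples differed from each other more than S265A differed from either of them. On the scale of log2(FPKM + 0.1), the median absolute difference was 0.46 between WT A and WT B, 0.35 between S265A and WT A and 0.25 between S265A and WT B. The WT pair was 2-fold or more apart in 2417 genes (18.7%). Over the same 12896 genes, which are not independent replicates, Pearson's correlation was 0.903 between WT A and WT B, 0.944 between S265A and WT A, and 0.968 between S265A and WT B. WT A stood apart from the other transduced samples, with correlations of 0.903 to 0.944 with the other 4, which correlated at 0.959 to 0.978 with each other. S265A lay between the WT samples for 7019 genes (54.4%). It was below both for 2780 genes (21.6%) and above both for 3097 genes (24%). At least 2-fold, it was below both WT samples for 52 genes, which is 0.403% of the genes tested, and above both for 58, or 0.45%. In the rest of the text these are called the lower and the higher genes, and the gap is the log2 difference of S265A from the nearer WT sample. The gap was also larger than the difference of the WT pair for 43 lower genes (0.333%) and 47 higher genes (0.364%). Near the limit, DDO was counted as lower with a gap of -1.01 and Kcnk5 was not, at -0.99. Tspan7 was counted as higher with 1.00061 and Aldh3a1 was not, at 0.995785.

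**Figure D1:**
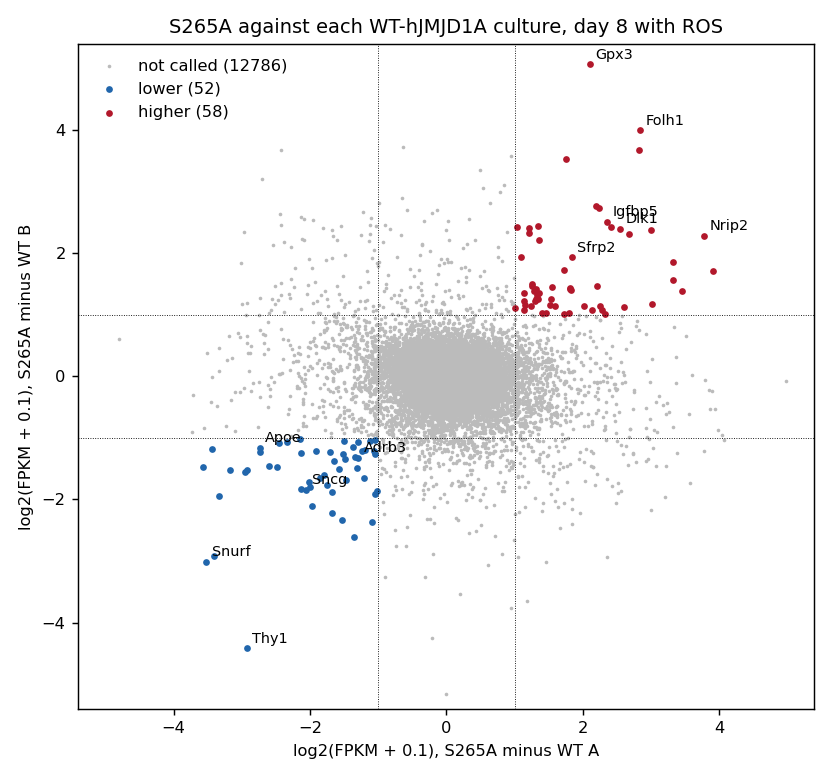
Difference in log2(FPKM + 0.1) of S265A from WT A (horizontal axis) and from WT B (vertical axis) for 12896 genes, 1 point a gene, with dotted lines at 2-fold. The 52 lower genes (blue) and 58 higher genes (red) lie in opposite corners, beyond the dotted lines on both axes.

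With a single S265A sample, no replicate check of it was possible. In an exact permutation test of 1 sample against 2, the smallest one-sided p is 0.333, so no single gene could pass. In limma on log2(FPKM + 0.1), the number of genes past an adjusted p of 0.05 was 0 of 12896, the number with an unadjusted p under 0.05 was 69, and the smallest adjusted p was 1.00. The counts depended on having both WT samples. Against WT B alone, S265A was at least 2-fold lower for 475 genes (3.68%) and higher for 284, and against WT A alone it was lower for 639 (4.96%) and higher for 874. Many of the lower and higher genes were weakly expressed: 24 of 52 and 33 of 58 had an FPKM under 3 in all 3 samples, and 12 in each direction reached 10 in at least 1 of them.

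The gene with the largest gap downward was Snurf, which shares its transcript with Snrpn, the gene of a splicing protein in neurons, at an imprinted locus expressed from the paternal allele. Snurf lies on chromosome 7 from 67127388 to 67150042 in mm9 and had FPKM of 1.92 and 1.32 in WT A and WT B and 0.0765 in S265A. Snrpn had 1.69, 1.16 and 0.0676 in the same order. The gaps were -3.01 and -2.91, and because the rows overlap they share reads. S265A was far under both WT samples, but it did not stand alone: Snurf was at 5.50 in S265D and 0.0883 in S265D-H1120Y, and from 0.425 to 1.43 in the 6 untransduced samples. The transduced samples thus fell into values near 0 and values above 1. The RefSeq promoter of Snurf, 300 bases around its start, is shown because methylation of CG dinucleotides marks the silent allele at this locus. In GRCm38.p6 it is chr7:60005150-60005449 on the minus strand, read 5′ to 3′, with each of its 7 CG dinucleotides in capitals. Of all promoters of this length in the RefSeq set, 52.1% held at least 7.

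Snurf: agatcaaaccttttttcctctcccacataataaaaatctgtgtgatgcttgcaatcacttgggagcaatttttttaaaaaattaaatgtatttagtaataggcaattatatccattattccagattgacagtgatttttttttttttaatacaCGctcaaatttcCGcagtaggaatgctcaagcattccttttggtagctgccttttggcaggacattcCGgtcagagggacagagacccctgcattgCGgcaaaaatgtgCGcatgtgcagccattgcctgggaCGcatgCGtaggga

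Thy1, a surface glycoprotein of fibroblasts and stromal cells, had the next largest gap, -2.93. Its FPKM was 5.36 and 15.1 in WT A and WT B and 0.616 in S265A. S265A was the lowest of the 5 transduced samples, with 6.93 in S265D and 4.10 in S265D-H1120Y, while untransduced cells had 13.6 at day 0, 0.899 at day 8 with ROS and 4.43 at day 8 without. S265A lay below both day 8 values.

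Some lower genes encode proteins of mature fat cells. Of the 34 general adipocyte genes tested, 2, Sncg and Adrb3, were among the lower genes, beside 0.403% of all genes, and 6 lay above both WT samples. Sncg, the synuclein that is abundant in adipocytes, had FPKM of 13.1 and 11.3 in WT A and WT B and 3.06 in S265A, with a gap of -1.84 against a WT difference of 0.21. The WT samples were also above both other mutants for Sncg, at 2.99 in S265D and 1.75 in S265D-H1120Y. Adrb3, the β3-adrenergic receptor through which norepinephrine acts on fat cells, had 5.48 and 5.58 in WT A and WT B and 2.18 in S265A, a gap of -1.29 against a WT difference of 0.03. Adrb3 was at 9.65 in S265D and 2.47 in S265D-H1120Y, so that S265A and S265D-H1120Y were low and the other 3 transduced samples high. Gpr81, the lactate receptor that restrains lipolysis, had 10.3 and 10.1 in WT A and WT B and 4.30 in S265A. Apoe, an apolipoprotein that fat cells secrete, had 25.9 and 8.63 in WT A and WT B and 3.80 in S265A, but its WT samples differed from each other by more than the gap. Gpr81 and Apoe were chosen after their values were seen. Bhlhe41, a transcriptional repressor of the circadian clock, had 3.72 and 4.32 in WT A and WT B and 1.28 in S265A. Zbp1, a sensor of Z-form nucleic acids that interferons induce, had 21.1 and 37.9 in WT A and WT B and 10.4 in S265A. For Bhlhe41 and Zbp1 the gap was larger than the WT difference. The promoter of Gpr81 (Hcar1 in RefSeq), chr5:123879954-123880253 on the minus strand of GRCm38.p6, is shown as that of a lower adipocyte gene, with its 8 CG dinucleotides in capitals. At least as many were in 48.6% of all promoters.

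Gpr81: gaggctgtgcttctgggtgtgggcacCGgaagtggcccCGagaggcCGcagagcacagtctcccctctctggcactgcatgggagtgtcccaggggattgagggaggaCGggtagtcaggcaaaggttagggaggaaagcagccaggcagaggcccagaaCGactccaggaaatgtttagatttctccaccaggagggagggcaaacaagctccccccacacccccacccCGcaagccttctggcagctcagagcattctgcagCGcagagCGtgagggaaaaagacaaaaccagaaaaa

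The other lower genes with the largest gaps encode proteins of various kinds or are noncoding. Atp6v0e2, a subunit of the vacuolar proton pump, had FPKM of 0.934 and 1.03 in WT A and WT B and 0.164 in S265A. Eml2, a microtubule-binding protein, had 2.32 and 2.36 in WT A and WT B and 0.620 in S265A, and Lims2, an adaptor at focal adhesions, had 3.79, 3.05 and 0.858 in the same order. D930014E17Rik had 16.1, 13.1 and 3.62, and the noncoding transcripts AK085420 and AK040865 had 1.43, 0.478 and 0.0509, and 1.15, 0.980 and 0.210. These 6 genes were named because, among other things, the gap was larger than the WT difference, so this is not a result about them. For AK085420 the WT samples were still 1.40 apart on the log2 scale, against a gap of -1.94. Atp6v0e2, AK085420 and AK040865 did not reach 2-fold with a pseudocount of 1.

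**Figure D2:**
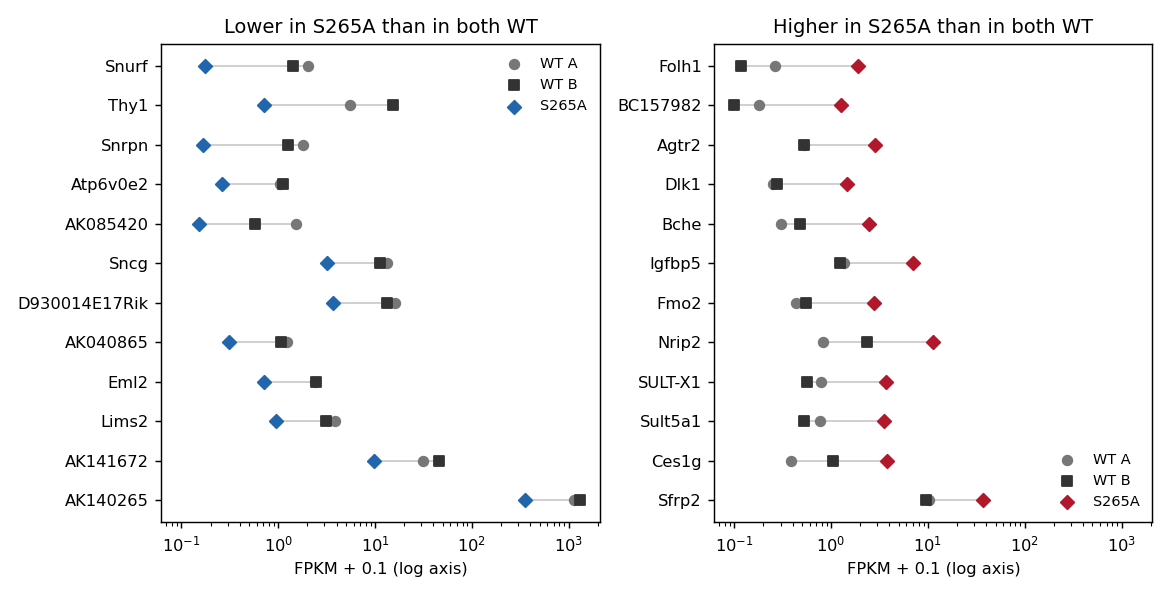
FPKM + 0.1 on a log axis in WT A (circles), WT B (squares) and S265A (diamonds) for the 12 lower (left) and 12 higher (right) genes with the largest gap among those whose gap was over the WT difference. S265A lies outside the WT pair in every row, as it was chosen to, from 0.0765 against 1.32 and 1.92 for Snurf to 36.9 against 9.55 and 10.2 for Sfrp2.

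Of the 52 lower rows, 4 lay on the mitochondrial genome, which encodes ribosomal RNAs and subunits of the respiratory chain. They were chosen as a group after their values were seen. AK140265, which overlaps the 12S ribosomal RNA gene mt-Rnr1 (mitochondrial bases 70 to 852), had FPKM of 1123 and 1296 in WT A and WT B and 352 in S265A, a gap of -1.68 against a WT difference of 0.21. It was at 1570 in S265D and 441 in S265D-H1120Y, so the same samples were low as for Adrb3. Untransduced cells had 159 and 142 at day 0 and 1457 and 1079 at day 8, with and without ROS. The other 3 rows, GU332589, AK141672 and BC071253, had a much higher FPKM in their antisense than in their sense row in all 3 samples. AK141672, for example, had 9.68 in the sense and 211.5 in the antisense row of S265A, and these 3 sense rows cannot be taken as levels of the genes that they overlap. The most abundant mitochondrial messages were not 2-fold lower: DQ539915, over the cytochrome oxidase gene mt-Co1, had 14275 and 10431 in WT A and WT B and 11122 in S265A, and Cox2 had 11380, 6709 and 6206. In all, S265A was below both WT samples in 7 of 10 sense rows and in 9 of 10 antisense rows, and above both in 0. Among these sense rows the gaps of AK018753, AK163440 and Cox2 were only -0.02, -0.07 and -0.11. Some rows also overlap, such as GU332589 and AK018753, so the rows are not independent and the tally does not show a general fall. Among all 1060 antisense rows tested, 18.1% were below both, 1.04% at least 2-fold below and 0.66% at least 2-fold above.

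**Figure D3:**
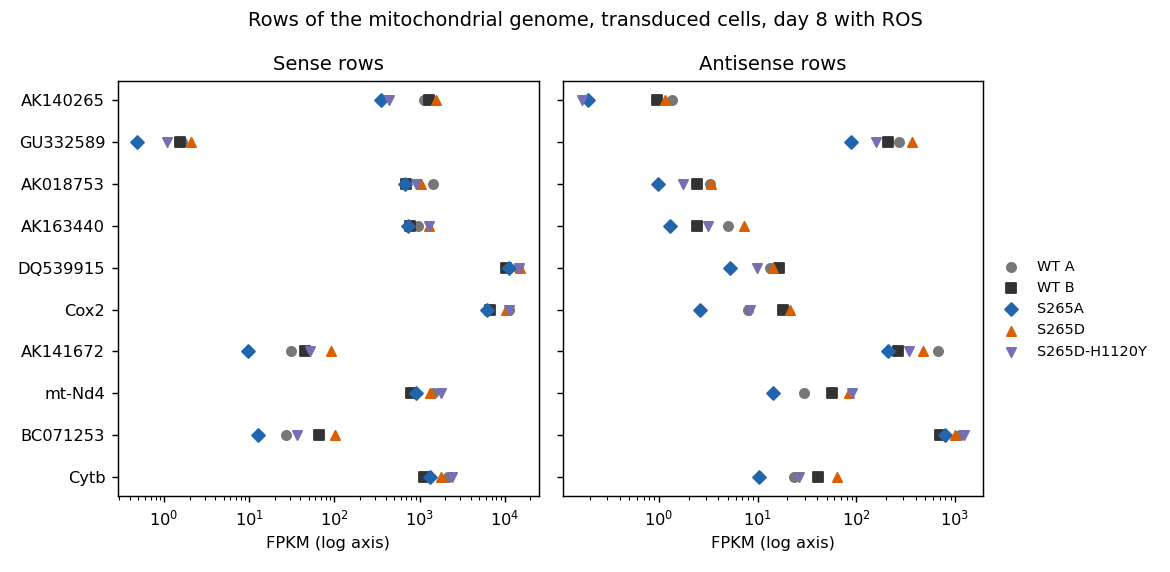
FPKM on a log axis of the 10 sense (left) and 10 antisense (right) rows of the mitochondrial genome in the 5 transduced samples. In the sense rows S265A (blue diamonds) is far to the left of both WT samples for AK140265, GU332589, AK141672 and BC071253, and close to WT B for DQ539915, Cox2, mt-Nd4 and Cytb.

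Of the 23 preadipocyte and stromal genes tested, 3 were among the higher genes and 1, Thy1, among the lower genes (0.45% and 0.403% of all genes). Dlk1 (Pref-1), a membrane protein that inhibits adipogenesis, on chromosome 12 from 110691665 to 110701546 in mm9, had FPKM of 0.148 and 0.174 in WT A and WT B and 1.35 in S265A, with a gap of 2.40, or 0.999545 with a pseudocount of 1, just under 2-fold. It was at 0.0923 in S265D and 0.0650 in S265D-H1120Y, and among the 6 untransduced samples it passed 1 only at day 0, with 1.41 and 1.13. S265A thus had a Dlk1 level near that of day 0 cells, and the 4 other transduced samples did not. Sfrp2, a secreted Wnt modulator of stromal cells, had 10.2 and 9.55 in WT A and WT B and 36.9 in S265A, beside 25.6 in S265D, 19.9 in S265D-H1120Y and 39.2 in untransduced cells at day 0 of the ROS series. Cd34, a sialomucin of progenitor cells, had 4.75 and 5.13 in WT A and WT B and 11.4 in S265A, beside 9.35 and 11.8 in the other mutants. For Sfrp2 and Cd34, both WT samples were below all 3 mutants.

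The summed FPKM of the 32 preadipocyte and stromal genes in the files was 264.8 in WT A, 403 in S265A and 699.6 in WT B, so S265A was between the WT samples. Of the 23 that were tested, 13 were between, 6 above both and 4 below both, against 24% above and 21.6% below of all genes. Ly6a, another stromal marker, had 116 and 496 in WT A and WT B and 199 in S265A, and Pdgfra, the receptor of platelet-derived growth factor on fibroblasts, had 9.33, 35.6 and 15.0, both taken from the list after their values were seen. Of the 32 genes, Dpp4, Wnt10b and Tcf21 stayed under 0.1 in all 3 samples. In such bulk samples, a smaller number of cells of a type and less RNA per cell cannot be told apart. The part of undifferentiated cells in these differences was not tested. The promoters of Dlk1 (chr12:109452573-109452872) and Sfrp2 (chr3:83766071-83766370), both on the plus strand of GRCm38.p6, are shown as those of the preadipocyte genes with the largest upward gaps. They hold 9 and 22 CG dinucleotides, in capitals. At least 9 were in 45.8% of all promoters, and at least 22 in 23.1%.

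Dlk1: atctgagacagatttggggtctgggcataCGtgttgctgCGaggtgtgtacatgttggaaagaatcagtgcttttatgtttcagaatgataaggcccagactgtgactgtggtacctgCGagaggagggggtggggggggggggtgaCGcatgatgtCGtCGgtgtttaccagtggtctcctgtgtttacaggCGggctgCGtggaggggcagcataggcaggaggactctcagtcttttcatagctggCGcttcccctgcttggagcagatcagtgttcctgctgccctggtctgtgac

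Sfrp2: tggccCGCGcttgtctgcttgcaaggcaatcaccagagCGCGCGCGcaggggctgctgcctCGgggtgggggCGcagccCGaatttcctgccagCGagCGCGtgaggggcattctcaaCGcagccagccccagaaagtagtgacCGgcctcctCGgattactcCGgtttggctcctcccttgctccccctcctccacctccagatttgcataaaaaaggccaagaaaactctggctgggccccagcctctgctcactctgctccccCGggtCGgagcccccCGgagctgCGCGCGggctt

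RefSeq held a promoter for 34 of the 52 lower rows and 36 of the 58 higher rows. The letters AGGTCA, searched on both strands, were in 16.3% of all promoters, in 8 of the 47 promoters of lower genes (17.0%) and in 6 of the 42 of higher genes (14.3%), where a gene can have several. Since fewer than 80% of either group of rows had a promoter, this comparison is void.

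The higher genes with the largest gaps included cell-surface enzymes and receptors. Folh1, a folate and glutamate carboxypeptidase, had FPKM of 0.165 and 0.0185 in WT A and WT B and 1.79 in S265A. Agtr2, the type 2 angiotensin II receptor, had 0.429 and 0.423 in WT A and WT B and 2.71 in S265A, and Bche, butyrylcholinesterase, had 0.207, 0.374 and 2.36 in the same order. All 3 were weakly expressed. Agtr2 was also at 1.92 in S265D-H1120Y, Bche at 1.59 in S265D, and Folh1 at 0.839 in S265D and 0.687 in S265D-H1120Y. Over the untransduced samples, Folh1 ranged from 0 to 1.73, Agtr2 from 0 to 7.92 and Bche from 0 to 0.251. At day 8 without ROS, Folh1 had 1.51 and Agtr2 4.51 in these cells, and with ROS 0.624 and 0.816. The levels of Folh1 and Agtr2 in S265A were thus reached or nearly reached in untransduced cells. Nrip2, a nuclear receptor-interacting protein, had 0.721 and 2.22 in WT A and WT B and 11.2 in S265A, and in S265D-H1120Y it reached 12.6. Fmo2, a flavin monooxygenase, had 0.329 and 0.454 in WT A and WT B and 2.64 in S265A, and was at 2.52 in S265D-H1120Y and 3.43 in untransduced cells at day 8 with ROS. For Nrip2 and Fmo2, S265A was therefore matched by S265D-H1120Y and not by either WT sample. The sulfotransferase Sult5a1, whose row overlaps that of SULT-X1, had 0.673 and 0.420 in WT A and WT B and 3.44 in S265A, and the carboxylesterase Ces1g had 0.282, 0.947 and 3.71. BC157982, which overlaps the complement gene C7, had 0.0803 and 0 in WT A and WT B and 1.18 in S265A.

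Secreted regulators and matrix enzymes were also among the higher genes. Igfbp5, a binding protein of insulin-like growth factors, had FPKM of 1.27 and 1.12 in WT A and WT B and 6.90 in S265A, a gap of 2.36 against a WT difference of 0.16. S265A was the highest of all 11 samples for Igfbp5, with 3.00 in S265D next. Gpx3, the secreted glutathione peroxidase, had 4.98 and 0.550 in WT A and WT B and 21.8 in S265A, but the WT samples lay 2.97 apart on the log2 scale. Mmp3, which cleaves matrix proteins, had 0.193 and 1.25 in WT A and WT B and 4.31 in S265A, with WT samples 2.20 apart, while the membrane-bound Mmp15 had 0.701, 0.733 and 1.66. Fmod, a collagen-binding proteoglycan, had 0.477 and 0.170 in WT A and WT B and 1.36 in S265A, and the B-cell chemokine Cxcl13 had 0.184, 0.605 and 1.32. For Cxcl13 the WT difference of 1.31 was larger than the gap of 1.01. S265A was the highest of all 11 samples for 25 of the 58 higher genes, and the lowest of all 11 for 10 of the 52 lower genes. The rule had already placed S265A beyond both WT samples, which favours such a place. The share over all genes was not counted, so these counts are not read as a trait of S265A.

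The gene lists gave 15 members in all that were 2-fold beyond both WT samples, beside 110 of all 12896 genes. The number of different genes tested over all lists was not counted, so the 15 cannot be read as many or few. In most lists S265A was most often between the WT samples, as it was for 54.4% of all genes. Of 31 beige and brown adipocyte genes tested, 0 were lower or higher than both by 2-fold, 8 were below both, 4 above both and 19 between. Against WT A, S265A was at least 2-fold lower for 20 of the 31 genes, and against WT B for 0. In the correlation over all genes WT A stood apart from the other 4 transduced samples, but within this list that differed by gene. Cox8b had FPKM of 74.6 in WT A, 73.7 in S265D and 13.5 in WT B, whereas Fabp3 had 33.0, 3.58 and 2.20 in the same order. These genes were chosen after their values were seen. Which WT sample was the more typical was not tested. The genes that the study names for its RNA-seq, among them Ucp1 and Cidea, were described as a group, with Pparg also on its own. In the study, all but Pparg are beige-selective genes that were not induced with S265A. Pparg is named there as a general adipogenic gene without this change. The study also reports lower levels of several of these genes by qPCR in S265A-transduced cells. It reports the same for primary cultures and cold-exposed subcutaneous fat of S265A knock-in mice, with less UCP1 protein. Those experiments are not part of the data compared here, and the 2-fold rule against both WT samples is not the study's. Of these 10 genes, S265A was below both WT samples for 5, between for 5 and 2-fold beyond both for 0. The median log2 difference was -2.67 from WT A and 0.02 from WT B. S265A was at least 2-fold lower than WT A for 9 of the 10 and than WT B for 0, and at least 2-fold higher than WT B for 1. Pparg was the gene not 2-fold below WT A, with FPKM of 89.8 and 95.6 in WT A and WT B and 81.4 in S265A. Of 34 general adipocyte genes, 14 were below both WT samples, against 21.6% of all genes, 6 were above both, and 2 (Adrb3 and Sncg) were 2-fold lower. The median log2 difference over these 34 genes was -0.39 from WT A and 0.0037 from WT B, beside 0.02 and 0.01 over all genes. For 32 genes of mitochondrial fatty acid oxidation the medians were -0.73 and 0.07. For 81 genes of the respiratory chain and ATP synthase, 63 were between the WT samples, and 0 were 2-fold beyond them.

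**Figure D4:**
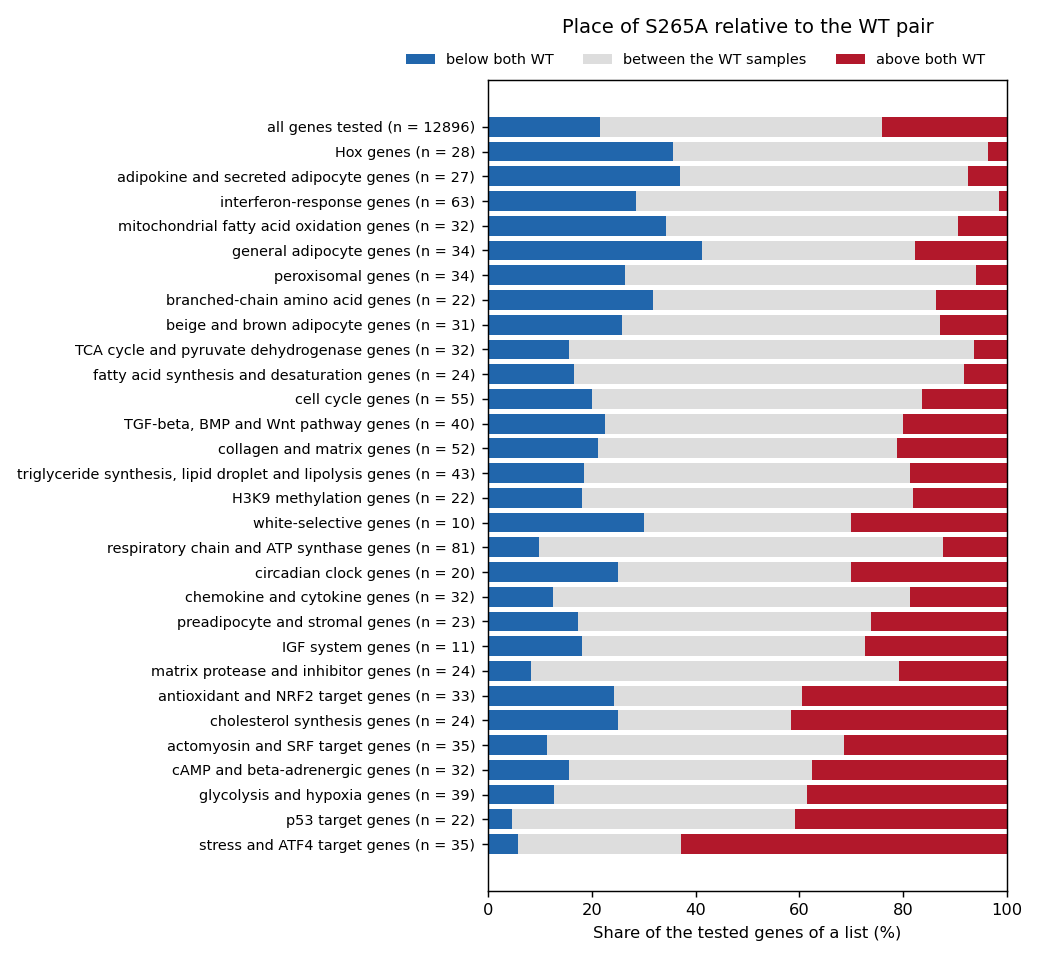
Share of the tested genes of each plotted list for which S265A was below both WT samples (blue), between them (grey) or above both (red), with all 12896 genes in the top bar. The red share is longest for the stress and ATF4 target genes (22 of 35), and among the lists plotted it is shortest for the interferon-response and Hox genes, with 1 gene each.

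The largest share above both WT samples among the lists plotted was in the stress and ATF4 target genes, which cells induce when protein folding or amino acid supply is disturbed. S265A was above both for 22 of 35 (62.9%, against 24% of all genes) and below both for 2, yet 0 reached 2-fold. The median log2 difference was 0.72 from WT A and 0.27 from WT B. Atf4 itself had FPKM of 196 and 320.2 in WT A and WT B and 399 in S265A, the chaperone Hspa5 had 268, 455 and 602, and Slc3a2, a subunit of amino acid transporters, had 58.5, 64.3 and 105. S265D-H1120Y was above S265A for each of these 3 genes, at 505, 1382 and 189. Of 22 p53 target genes, S265A was above both WT samples for 9 and below both for 1, with medians of 0.77 from WT A and 0.0027 from WT B, and 0 were called. Conversely, of 63 interferon-response genes it was below both for 18 (28.6%, against 21.6% of all genes) and above both for 1. The WT samples differed by a median of 1.08 on the log2 scale in this list, and S265A was 0.17 from WT A and -0.93 from WT B in the median. It was at least 2-fold below WT B for 28 of these genes and at least 2-fold above WT A for 7, and Zbp1 was the only member of the list that passed 2-fold. Iigp1, an immunity-related GTPase, had 21.4 and 22.0 in WT A and WT B and 11.7 in S265A. The genes named in this paragraph other than Zbp1 were chosen after their values were seen. Of 28 Hox genes, which set position along the body axis, S265A was below both for 10 (35.7%) and above both for 1. Among 22 genes that write, read or remove H3K9 methylation, 4 were below both, 4 above both and 0 called.

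The lower and higher genes were then read in samples that had not been used to choose them. In untransduced cells at day 8, 10 of the 52 lower genes (19.2%) were at least 2-fold higher with ROS than without, against 2.64% of all genes tested, and 5 (9.62%) were at least 2-fold lower, against 8.6%. The 10 included the mitochondrial sense rows GU332589, AK141672 and BC071253, and without the mitochondrial genome 7 of 48 lower rows (14.6%) were higher with ROS. Adrb3 was not among them, with FPKM of 4.25 with and 4.12 without ROS. The higher genes had the opposite tendency: 24 of 58 (41.4%) were at least 2-fold lower with ROS, and 2 (3.45%) higher. Igfbp5 had 0.0765 with ROS and 1.84 without, Sfrp2 9.46 and 28.8, and Cd34 4.52 and 19.8. The median log2 difference with ROS was -0.85 over the 58 higher genes, 0.03 over the 52 lower genes and -0.18 over all genes. From day 0 to day 8 with ROS, 32 of the lower genes (61.5%) were at least 2-fold higher and 2 lower, against 18.9% and 19.9% of all genes. Of the higher genes, 28 (48.3%) were higher and 9 (15.5%) lower over the same time. The lower genes passed the minimum FPKM through the WT samples, which were also at day 8 with ROS, and many were weakly expressed. Genes that rise toward that state were therefore favoured by the choice, and the higher genes exceeded the 18.9% as well. The higher genes, in turn, were chosen as low in both WT samples at day 8 with ROS, and many passed the minimum FPKM through S265A. Genes that are low in that state were thus favoured too, and the 41.4% is not independent of the choice. Each of the untransduced samples was single, and none of these differences has a replicate check.

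The S265A comparison also shared no sample with a contrast of S265D, in which the same serine is replaced by aspartate as a mimic of phosphorylation, and S265D-H1120Y, which lacks demethylase activity in addition. Of the 52 lower genes, 25 (48.1%) were also at least 2-fold lower in S265D-H1120Y than in S265D, against 4.71% of all genes, and 3 were at least 2-fold higher, against 2.15%. The 25 rows made up 23 separate loci, and without the mitochondrial genome 23 of 48 rows (47.9%) were lower. They included Snurf and Snrpn, Adrb3, Gpr81, Zbp1, Lims2 and AK140265. Gpr81 went from an FPKM of 6.87 to 1.83 between these samples, and Aldh1b1, a mitochondrial aldehyde dehydrogenase chosen after its values were seen, had 1.35 and 0.0187. Of the 58 higher genes, 13 were at least 2-fold higher and 9 lower in S265D-H1120Y. The median log2 difference was -0.93 over the lower genes, 0.10 over the higher genes and -0.05 over all genes. This contrast was chosen after values had been seen, each of its samples was single, and whether the lower genes vary more than other genes between any 2 cultures was not tested.

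**Figure D5:**
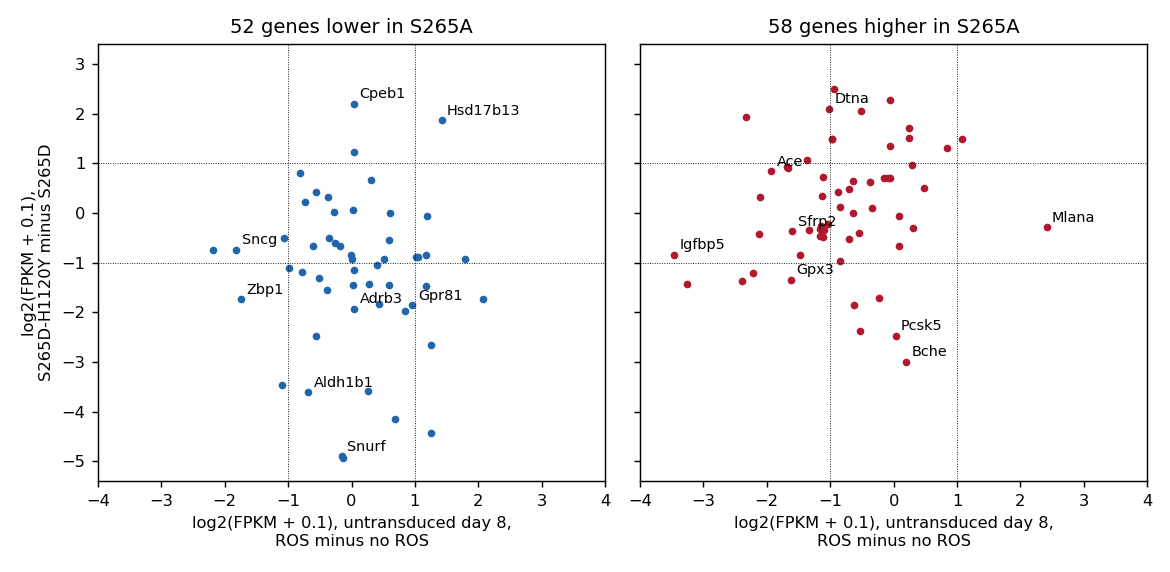
Log2 difference with ROS against without in untransduced cells at day 8 (horizontal axis) and of S265D-H1120Y from S265D (vertical axis) for the 52 lower genes (left) and 58 higher genes (right), 1 point a gene, dotted lines at 2-fold. The lower genes extend downward (25 at or below the lower line), and the higher genes extend to the left (24 at or beyond the left line).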

How the data were processed

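RNA-seq of 11 samples was described per the labels, and 3 of them (S265A, WT A and WT B) formed the comparison. The authors prepared TruSeq libraries, sequenced them on an Illumina HiSeq, mapped the reads with BWA to the mm9 genome and to UCSC transcripts, kept the better hit with a local realignment, and calculated FPKM for each strand. The deposited FPKM values are given per transcript and strand, and a further deposited column holds the signal, or coverage, as mapped bases. As mapped bases are not read counts, no count test was used.

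For each gene symbol the sense row that the files mark as representative was taken, where its FPKM reached 1 in 1 or more of the 3 samples. FPKM was transformed to log2(FPKM + 0.1), which understates changes of low genes. A call required S265A to lie at least 2-fold beyond both WT samples. limma 3.58.1 (R 4.3.3) was fitted on S265A, WT A and WT B with 1 residual degree of freedom and Benjamini-Hochberg adjustment, after a test on simulated data. No replicate of S265A exists, and any p-value measures only the spread between the WT samples. The named genes were the 12 of each direction with the largest gap among those whose gap was over the WT difference, the called members of the gene lists and Kdm3a, and a few results are not reported here. The members and lists were chosen with earlier results of these data known. Overlaps with genes were read from GENCODE vM1 on NCBIM37, the same assembly as mm9, and promoters from RefSeq on GRCm38.p6. Alternatives changed the minimum, the pseudocount, the scaling, the transcript, the WT sample and the limma fit. Tables were made with Python 3.11.15, pandas 2.3.3 and numpy 2.4.6, and figures with matplotlib 3.10.9.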

Additional observations from a re-analysis of the deposited data

Results flagged for a closer look

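The antisense rows, which the comparison did not use, held 7 that were at least 2-fold above both WT samples in S265A, or 0.66% of the 1060 tested, and 11 that were at least 2-fold below both, or 1.04%. The largest gap upward was in the antisense row of Fabp5, a fatty acid-binding protein, with FPKM of 1.30 and 1.34 in WT A and WT B and 7.47 in S265A. That of the metallothionein Mt2 had 1.16, 1.64 and 4.77. Of the 11 rows below both, 7 lay on the mitochondrial genome.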

How the results depend on the processing

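No paired analysis was possible because S265A had 1 sample, whose label gives no replicate letter that WT A or WT B shares. Alternatives that kept every count within 1.5 times were a pseudocount of 0.01, centring on the median of well expressed genes, quantile normalization and the transcript with the highest mean FPKM. Under these 4, the lower genes numbered 71, 55, 71 and 55, of which 52, 52, 47 and 52 were among the 52. A pseudocount of 1 gave 15 lower and 25 higher genes, with 12 and 23 whose gap was over the WT difference. A minimum FPKM of 0.1, or none, gave 100 lower and 138 higher genes, with 89 and 120 over the WT difference, and a minimum of 5 gave 20 and 18, with 14 and 15. With 1 WT sample left out, the lower genes numbered from 475 to 639 and the higher genes from 284 to 874. Counting overlapping rows once gave 48 lower and 55 higher loci, a step chosen after seeing the data. limma gave 0 genes in each of 9 alternatives, in which from 46 to 4599 genes had an unadjusted p under 0.05 and the smallest adjusted p was 0.0519, without WT B, where the day 0 samples gave the spread. The limma fit on all 5 transduced samples could not differ from the main fit, since S265D and S265D-H1120Y had 1 sample each and added no spread. Of the lower genes, the number at least 2-fold higher with ROS in untransduced cells was 2 with a pseudocount of 1, 17 with a minimum of 0.1 and 4 with a minimum of 5, and the number at least 2-fold lower was 2, 12 and 3. Of the higher genes, the number higher with ROS was 0, 9 and 0, and the number lower was 8, 38 and 7. These counts change with the number of genes that enter. Of 184 values of the gap for the 24 named genes and Kdm3a under the alternatives, 0 changed sign and 147 moved by less than 1 SD of the WT pair. A minimum FPKM decides whether a gene is tested and cannot move its gap, so part of the 147 was fixed in advance. The 24 genes were chosen for large gaps, so sign changes were unlikely from the start. With a pseudocount of 1, 3 of the 12 named lower genes, Atp6v0e2 (-0.73), AK040865 (-0.71) and AK085420 (-0.49), and 1 of the 12 higher, Dlk1 (0.999545), were no longer 2-fold beyond both WT samples. With a minimum FPKM of 5, 7 and 9 of the named genes were not tested. Without the mitochondrial rows, a step chosen after seeing the data, there were 48 lower genes. A low FPKM rests on few mapped bases: the fewest in S265A for a higher gene was 2878. Lower genes, for which S265A is the low sample, had fewer in S265A, such as 798 for Snurf and 199 for AK085420.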

Other observations

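Other imprinted genes, looked at because Snurf and Dlk1 had large gaps, did not all lie beyond the WT samples. Ndn, from the same imprinted region as Snurf, had FPKM of 1.54 and 0.131 in WT A and WT B and 0.0226 in S265A. Cdkn1c, an inhibitor of the cell cycle, had 59.4 and 2.27 in WT A and WT B and 13.9 in S265A, and Grb10, an adaptor of growth factor receptors, had 9.84, 1.64 and 2.77 in the same order, so that S265A lay between the WT samples for both. Peg10, a gene derived from a retrotransposon, had 6.67 and 1.16 in WT A and WT B and 1.40 in S265A, and 14.2 in S265D. Igf2r, which clears insulin-like growth factor 2, had 11.8 and 32.4 in WT A and WT B and 21.1 in S265A. Meg3, which lies beside Dlk1, was under the minimum FPKM of 1 in all 3 samples.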
